A study of Rattus norvegicus with 4 samples.

Results

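Voltage-gated calcium channel subunits were followed by probe set in cultured rat cortical neurons held for 4 h in 25 mM KCl and in control cultures given phosphate-buffered saline for the same time. The members were all probe sets whose platform annotation gives 1 of 10 subunit symbols, whatever their values. They numbered 19 of the 1263 probe sets that are not array controls, and stood for 9 of the 720 genes with a probe set of their own symbol: Cacna1a, Cacna1b, Cacna1c, Cacna1d, Cacna1e, Cacna2d1, Cacnb1, Cacnb2 and Cacnb3. For the tenth gene, Cacnb4, no probe set was annotated, and it was not analysed here.

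The study holds 4 arrays, 2 of KCl cultures (KCl 1 and KCl 2) and 2 of saline cultures (control 1 and control 2), and asks which genes respond to depolarization. All cultures were primary cells from the cortex of rats at embryonic day 17, grown for 14 days in Neurobasal medium with B27, and no strain, sex or genotype is given. A description field carries the wording of an unactivated culture for all 4 samples, so the groups were read from the titles and treatment protocols. Fos, an immediate-early gene, had intensities of 9744.5 and 9883.3 on the KCl arrays and 719.5 and 646.2 on the control arrays. This is a separation in the direction of the titles. Of 7 activity-regulated genes tested, 6 rose at a limma adjusted p below 0.05, Nptx2 being the exception. Over all tested probe sets, 102 of 947 (10.8%) passed in either direction. The activity-regulated genes were chosen with earlier results of these data known, so their count is no independent check of the groups. Nothing in the labels says that the 2 samples of a group were separate cultures, so the spread behind the p-values may be technical and covers these 4 samples alone. Intensities are linear values in arbitrary units, and values up to 73.7, the highest reading of the 19 bacterial and yeast control probe sets, are called background.

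Voltage-gated calcium channels open when the membrane is depolarized and let calcium into the cell. Each channel has a pore-forming α1 subunit, which sets its type, and auxiliary α2δ and β subunits, which bring it to the membrane and tune its opening. In neurons L-type channels on the cell body and dendrites are known for coupling depolarization to gene expression, while P/Q- and N-type channels trigger transmitter release at nerve terminals. Extracellular potassium raised as here opens these channels, and blockers of the L-type are known to reduce the induction of genes such as Fos and Bdnf by this treatment.

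None of the subunit genes passed the test for a change after KCl. Of the 19 member probe sets, 6 lay among the dimmest 25% and were not tested, and 13 were tested with limma in a fit over all 947 probe sets that remained. None of the 13 reached an adjusted p below 0.05, where 102 of 947 probe sets (10.8%) did, 50 of them (5.28%) lower. At an unadjusted p below 0.05 the members numbered 3, all lower, beside 242 of 947 (25.6%) in either direction and 154 (16.3%) lower. With an ordinary t statistic none of the 947 passed, and 1 member had an unadjusted p below 0.05. The 947-wide count depended on single arrays, with 105 called without KCl 1, 178 without KCl 2, 14 without control 1 and 11 without control 2. Of the members, 1 was called without KCl 2, a probe set of Cacna1c, and none without each of the other arrays.

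**Figure D1:**
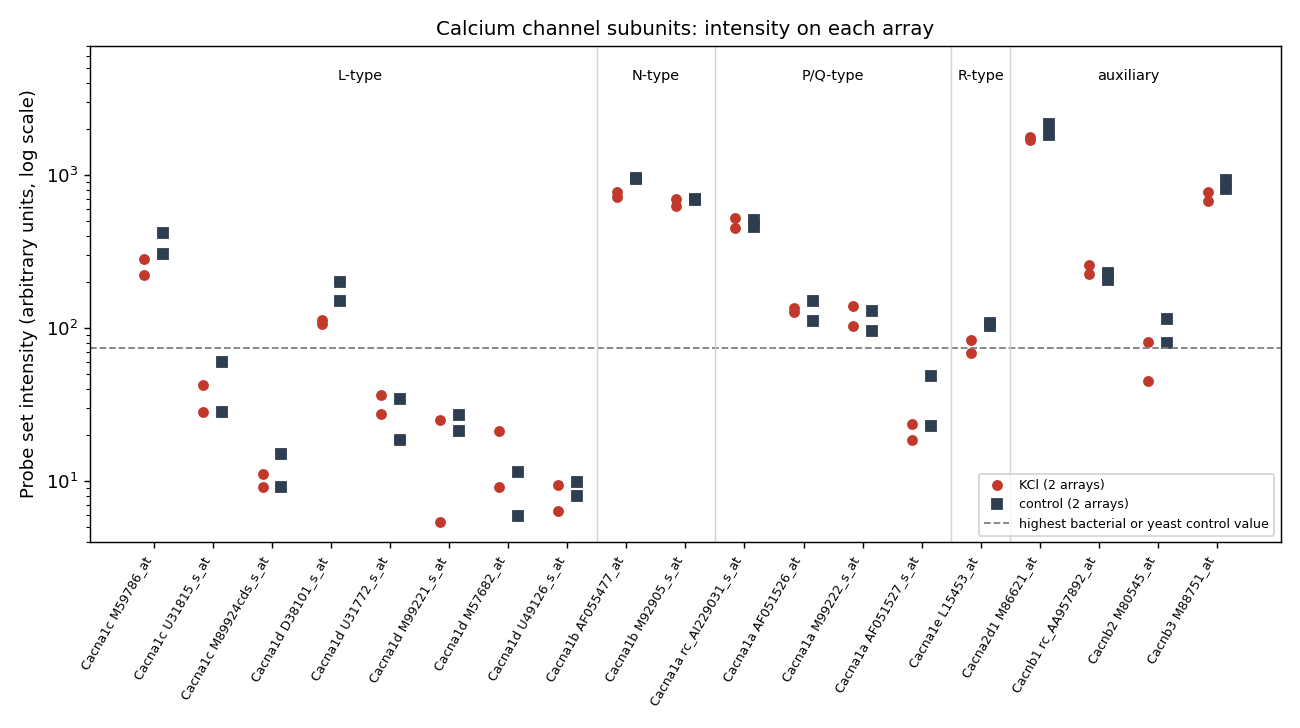
Intensity of the 19 subunit probe sets on each array (log axis, arbitrary units), grouped by channel type, with KCl arrays as circles and control arrays as squares. The dashed line is the background level of 73.7, and 7 probe sets lie below it on all 4 arrays while 10 lie above it on all 4.

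The L-type genes Cacna1c and Cacna1d encode pores that open at strong and at weaker depolarization, and each had 1 probe set above background. Cacna1c (probe set M59786_at) had intensities of 221.3 and 284.6 on the KCl arrays and 303.3 and 418.9 on the control arrays. Both KCl arrays lay below both control arrays, by a margin smaller than the gap within either group. The log2 change was −0.51 ± 0.21 (SE), a level 0.704-fold that of controls with a 95% interval of 0.501 to 0.990, and the limma adjusted p was 0.183. Without KCl 2 it was −0.69 (adjusted p = 0.0165), and with each other array left out it ran from −0.74 to −0.27 with adjusted p-values of 0.249 to 0.58. Without KCl 2 only the control arrays give a spread within a group. The call then rests on that spread as limma shares it over all tested probe sets, not on this probe set's own pair.

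The other probe sets of Cacna1c could not bear on this value. U31815_s_at read 28.1 and 42.2 on the KCl arrays and 59.7 and 28.5 on the control arrays, and M89924cds_s_at read 9.1 and 11.2 on the KCl arrays and 15.1 and 9.1 on the control arrays. All 8 readings were within background, the groups overlapped or touched in both, and no fold is given.

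Cacna1d had 5 probe sets, of which 1 lay above background. This probe set, D38101_s_at, had 107.1 and 112.4 on the KCl arrays and 201.6 and 151.6 on the control arrays. The KCl pair was tight and lay below both controls, which were less alike. The log2 change, −0.67 ± 0.25, was the most negative of the 13 and corresponded to 0.628-fold the control level (95% interval 0.425 to 0.927; limma adjusted p = 0.131). It lay between −0.88 and −0.47 with each array left out. The remaining 4 probe sets of Cacna1d read 5.4 to 36.8 on the KCl arrays and 5.9 to 34.3 on the control arrays. These values are all background, so whether the lower reading of D38101_s_at holds for other parts of the transcript was not tested.

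Cacna1b, the N-type pore of nerve terminals, had a pair of bright probe sets. The groups were apart on AF055477_at and overlapped on M92905_s_at, and the difference between the probe sets was not tested. AF055477_at had 773.5 and 723.4 on the KCl arrays and 951.8 and 937.6 on the control arrays. The groups were well apart and both pairs were tight, yet the size was modest: a log2 change of −0.34 ± 0.12, or 0.792-fold the control level (95% interval 0.654 to 0.959), with a limma adjusted p of 0.126, the smallest of any member. It stayed between −0.39 and −0.29 with each array left out. M92905_s_at had 624.5 and 696.2 on the KCl arrays and 702.1 and 688.2 on the control arrays, and the groups overlapped because KCl 2 lay between the controls. Its log2 change was −0.076 ± 0.13 (limma adjusted p = 0.749), and the 95% intervals of both probe sets, −0.61 to −0.060 and −0.37 to 0.22, share most of their range. The suffix _s_at is Affymetrix's mark for a probe set that can match several transcripts. D38101_s_at of Cacna1d and rc_AI229031_s_at of Cacna1a bear it too.

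Cacna1a, the P/Q-type pore that drives transmitter release at most central synapses, showed no measurable change on any probe set above background. The brightest, rc_AI229031_s_at, had 450.9 and 524.8 on the KCl arrays and 460.3 and 506.9 on the control arrays, so that the KCl values enclosed the control values. The change was 0.010 ± 0.15 on the log2 scale (limma adjusted p = 0.968). Its 95% interval ran from 0.794-fold to 1.28-fold, so a change of a size inside it remains possible. AF051526_at had 135.8 and 128.3 on the KCl arrays and 151.0 and 111.0 on the control arrays, and M99222_s_at had 139.6 and 103.4 on the KCl arrays and 129.4 and 96.3 on the control arrays. Both overlapped, with log2 changes of 0.028 ± 0.26 and 0.11 ± 0.29. The sign of all 3 changed with the array left out, within −0.19 to 0.32. The fourth, AF051527_s_at, was background on all arrays, with 23.8 and 18.5 on the KCl arrays and 48.8 and 23.1 on the control arrays.

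Cacna1e, the pore of R-type channels, which resist the classical blockers of the other types, was close to background. Its single probe set, L15453_at, had 69.2 and 83.6 on the KCl arrays and 107.9 and 104.0 on the control arrays. The control values were tight, both KCl values lay lower, and KCl 1 was within background. The log2 change of −0.48 ± 0.30 (limma adjusted p = 0.349) had a 95% interval from −1.16 to 0.20.

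**Figure D2:**
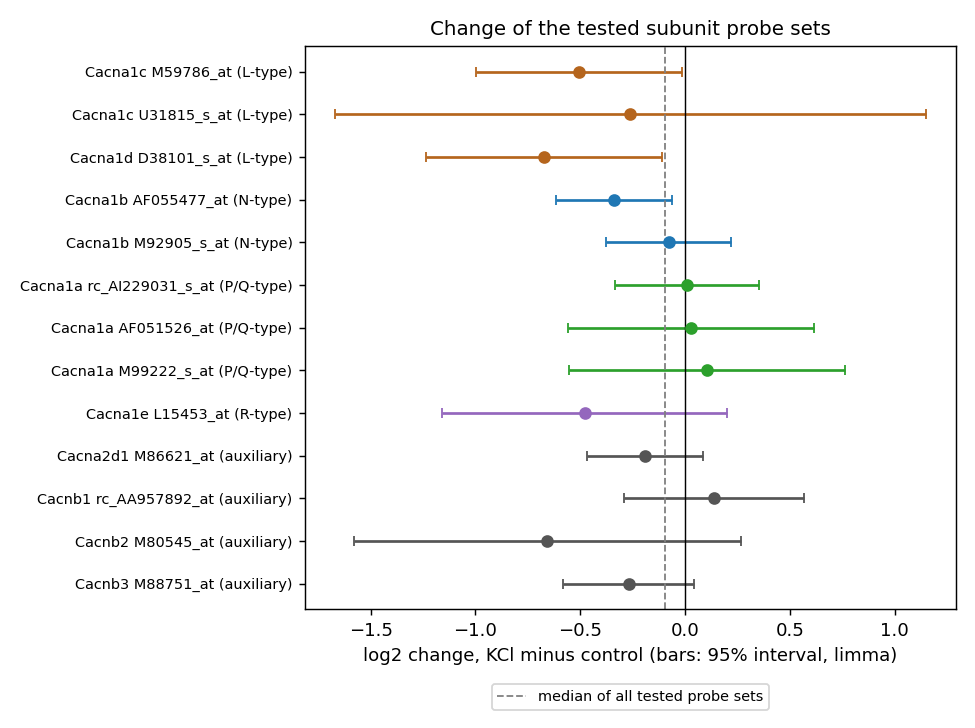
Log2 change (KCl minus control) of the 13 tested subunit probe sets with limma's 95% interval, by channel type, beside the median of all 947 tested probe sets (dashed, −0.097). The points run from −0.67 for Cacna1d to 0.14 for Cacnb1, and 3 intervals, of Cacna1c, Cacna1d and Cacna1b, lie below 0 before adjustment over all probe sets.

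Among the auxiliary subunits, Cacna2d1 encodes α2δ-1, the extracellular subunit that raises channel density at the membrane and binds gabapentin. M86621_at had 1790.1 and 1703.8 on the KCl arrays and 2165.0 and 1829.6 on the control arrays. The KCl values lay below both controls, while control 2 was nearer to the KCl pair than to control 1. The log2 change was −0.19 ± 0.12 (limma adjusted p = 0.371), or 0.877-fold the control level with a 95% interval of 0.724 to 1.06, so that a decrease beyond 27.6% lies outside the interval. It ran from −0.31 without control 2 to −0.067 without control 1.

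The β subunits sit on the inside of the channel and promote its transport to the membrane. Cacnb3, which is abundant in brain and pairs with N- and L-type pores, had 673.7 and 773.5 on the KCl arrays and 924.6 and 817.3 on the control arrays. The groups did not overlap, but the KCl 2 and control 2 values were close, and the log2 change was −0.27 ± 0.14 (limma adjusted p = 0.245). Cacnb1, the β subunit of skeletal muscle channels that is also made in brain, was the 1 auxiliary gene with a higher mean after KCl, with 224.7 and 257.5 on the KCl arrays and 206.9 and 230.7 on the control arrays. These ranges overlapped, and the log2 change was 0.14 ± 0.19 (limma adjusted p = 0.678). Cacnb2, the main β subunit of heart channels, had 45.2 and 81.3 on the KCl arrays and 114.2 and 80.0 on the control arrays. The groups overlapped and KCl 1 was within background. The log2 change of −0.66 ± 0.40 (limma adjusted p = 0.344) was −0.23 without KCl 1, −1.08 without KCl 2, −0.40 without control 1 and −0.91 without control 2, so its size depended on every array.

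The probe sets of a gene and the classes can be set side by side by their changes, but not by their levels, since probes differ in how brightly they report a transcript. Of the tested L-type probe sets 3 of 3 had a negative log2 change (median −0.51, 1 of them within background), of the N-type 2 of 2 (−0.21) and of the R-type 1 of 1 (−0.48). Of the P/Q-type, 0 of 3 did (median 0.028), and of the auxiliary subunits 3 of 4 (median −0.23). Over the 13 tested, 9 were negative (69.2%) with a median of −0.26, beside 571 of 947 (60.3%) and a median of −0.097 for all tested probe sets. The groups did not overlap in 6 of the 13, all lower after KCl, where 549 of 947 (58.0%) did not overlap and 346 (36.5%) were lower without overlap. These shares are near those of the whole table and are no result about the channel genes. Whether the classes differed in change was looked at with ratios within an array.

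A ratio of 2 genes on the same array does not depend on a factor that multiplies all values of that array. Other scaling, such as quantile normalization, can change it. Each gene entered through its brightest probe set, which gave 36 pairs. The Cacna1b probe set M92905_s_at, whose groups overlapped, therefore did not enter. The ratio of Cacna1a to Cacna1d was 4.21 and 4.67 on the KCl arrays and 2.28 and 3.34 on the control arrays. That of Cacna1a to Cacna1c was 2.04 and 1.84 on the KCl arrays and 1.52 and 1.21 on the control arrays. Both ratios were higher on both KCl arrays, by 0.68 and 0.52 on the log2 scale. For Cacna1b the ratios were 0.583 and 0.726 on the KCl arrays and 0.484 and 0.541 on the control arrays, and for Cacna1e 6.52 and 6.28 on the KCl arrays and 4.27 and 4.87 on the control arrays. All 4 had an exact two-sided permutation p of 0.333, the smallest that 2 arrays against 2 allow (0.631 with Benjamini-Hochberg adjustment over the 36 pairs). The groups did not overlap in 19 of the 36 pairs (52.8%), beside 54.8% of the 447931 pairs of all tested probe sets, so a shift between P/Q-type and the other pore genes was not shown.

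**Figure D3:**
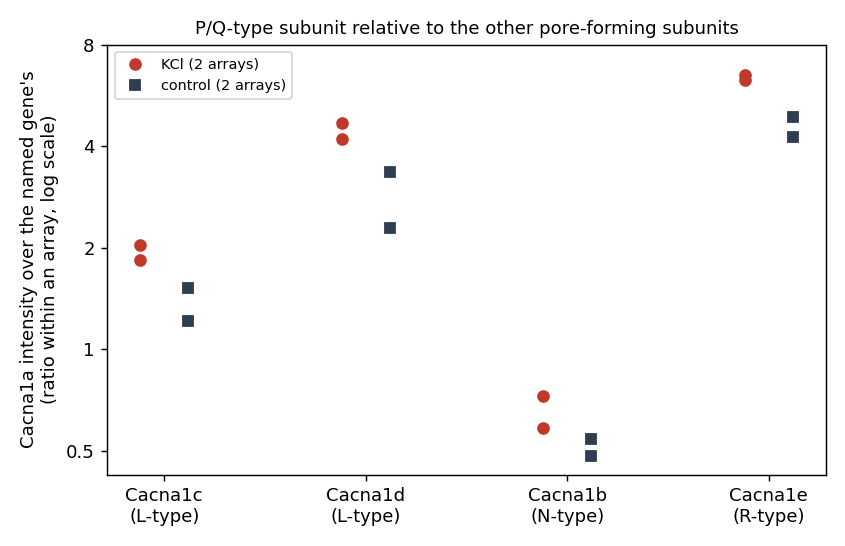
Ratio of the Cacna1a intensity to that of each other pore-forming gene within an array (log axis), with KCl arrays as circles and control arrays as squares. Each gene is shown through its brightest probe set only. For each of the 4 genes so taken the ratios of both KCl arrays lie above those of both control arrays, a pattern of no overlap that 54.8% of all pairs of probe sets share.

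Promoter windows are shown for the pore-forming genes on which the comparison of types turns: both L-type genes and the N-type gene, whose brightest probe sets had 95% intervals below 0, and the P/Q-type gene, whose interval was centred near 0. Each holds 250 bases before and 50 after 1 RefSeq transcript start, in build GRCr8, on the minus strand of the chromosome and written 5′ to 3′ in the direction of the gene. They lie at chr4:154051699-154051998 for Cacna1c, chr16:5527500-5527799 for Cacna1d, chr3:27944236-27944535 for Cacna1b and chr19:40650419-40650718 for Cacna1a. Capitals mark TGACG, the core of the cAMP response element that the activity-regulated factor CREB binds.
Cacna1c: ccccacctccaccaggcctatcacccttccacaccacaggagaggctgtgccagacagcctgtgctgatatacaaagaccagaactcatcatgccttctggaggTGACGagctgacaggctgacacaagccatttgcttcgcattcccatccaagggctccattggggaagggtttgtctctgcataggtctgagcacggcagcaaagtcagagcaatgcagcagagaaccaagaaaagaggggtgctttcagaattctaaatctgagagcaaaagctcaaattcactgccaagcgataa
Cacna1d: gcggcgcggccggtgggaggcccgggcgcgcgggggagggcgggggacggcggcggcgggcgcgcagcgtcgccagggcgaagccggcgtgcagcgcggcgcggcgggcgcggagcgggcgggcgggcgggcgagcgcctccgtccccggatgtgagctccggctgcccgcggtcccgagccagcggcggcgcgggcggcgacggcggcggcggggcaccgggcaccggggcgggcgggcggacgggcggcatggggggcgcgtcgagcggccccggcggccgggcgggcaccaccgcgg
Cacna1b: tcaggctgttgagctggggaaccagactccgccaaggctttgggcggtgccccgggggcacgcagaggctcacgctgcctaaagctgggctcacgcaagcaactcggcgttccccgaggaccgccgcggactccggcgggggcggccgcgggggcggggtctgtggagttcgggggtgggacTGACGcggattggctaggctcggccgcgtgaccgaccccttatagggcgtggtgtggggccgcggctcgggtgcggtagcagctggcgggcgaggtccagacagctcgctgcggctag
Cacna1a: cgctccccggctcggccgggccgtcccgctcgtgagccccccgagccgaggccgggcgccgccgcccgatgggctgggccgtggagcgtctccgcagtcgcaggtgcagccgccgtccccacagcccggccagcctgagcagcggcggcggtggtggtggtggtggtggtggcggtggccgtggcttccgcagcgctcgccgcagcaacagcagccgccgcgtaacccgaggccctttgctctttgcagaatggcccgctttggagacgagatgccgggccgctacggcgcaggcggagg

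Both strands were searched for TGACG, for the full element TGACGTCA, which contains the core on each strand, and for the AP-1 site TGANTCA. Of the 9 genes, 9 were matched to RefSeq by gene ID and 8 had windows, 11 in all. The core was in 4 of the 11 windows, 1 each of Cacna1b, Cacna1c, Cacna2d1 and Cacnb2, and in 21.2% of the 33469 windows of the genome. It began at base 183 of the Cacna1b window and at base 105 of the Cacna1c window. The full element was in none of the 11 and in 1.83% of all windows, and the AP-1 site in none and in 7.33%. The windows shown differed in composition, with 51.7% G and C for Cacna1c, 88.7% for Cacna1d, 72.0% for Cacna1b and 76.0% for Cacna1a, beside a median of 51.7% over all windows. In the Cacna1a window the annotated start falls on the letters atg, those of a start codon, and whether transcription begins there was not tested. The windows may therefore not be alike in what they cover. A match is a run of letters and no evidence of binding, and other starts of these genes were not searched.

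The channel genes tested outside the member list did not pass either. Cacna1g, a T-type pore that opens near rest, had 413.4 and 483.0 on the KCl arrays and 384.0 and 434.9 on the control arrays (log2 change 0.13 ± 0.16; limma adjusted p = 0.659). The groups overlapped. Cacng1, the γ subunit of skeletal muscle channels, had 101.7 and 111.0 on the KCl arrays and 90.8 and 106.9 on the control arrays (0.11 ± 0.27; limma adjusted p = 0.833). Both probe sets of Cacna1s, the skeletal muscle L-type pore, were background, with 5.8 to 16.6 on the KCl arrays and 6.3 to 17.4 on the control arrays. In all, 2 of 16 further subunit genes were tested and 0 passed, with 0 at an unadjusted p below 0.05.

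In the calcium pathway beyond the channels, 3 genes were called lower and 1 higher in the main fit. Over all tested probe sets, 102 of 947 (10.8%) were called, 50 of them (5.28%) lower. None of the calls in the pathway held with the replicate number as a block or without the intensity trend. The pathway lists were chosen with earlier results of these data known. Of 6 tested pumps and exchangers 1 fell, Atp2b2, a plasma membrane pump that extrudes calcium, with 518.0 and 503.9 on the KCl arrays and 749.8 and 689.0 on the control arrays (log2 change −0.49 ± 0.13; limma adjusted p = 0.0488). Of 10 tested calcium-dependent kinases and phosphatases 2 fell. They were Itpka, an inositol trisphosphate kinase, with 523.2 and 575.3 on the KCl arrays and 862.1 and 841.2 on the control arrays, and Ptk2b, a calcium-activated tyrosine kinase, with 382.0 and 485.7 on the KCl arrays and 689.5 and 664.5 on the control arrays. Their log2 changes were −0.63 and −0.65 (limma adjusted p = 0.0156 and 0.0335). The kinase gene Camk2d did not pass, with −0.36 ± 0.11 (limma adjusted p = 0.0754), nor did Camkk1, with −0.32 ± 0.15.

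Snap25, a vesicle fusion protein that binds presynaptic calcium channels, rose on 1 of 4 probe sets (0.43 ± 0.10; limma adjusted p = 0.0316), and its partner Stx1a did not pass (−0.25 ± 0.11; limma adjusted p = 0.195). None of 5 tested sensor and buffer genes passed, with 1 unadjusted p below 0.05, for Hpcal4 (−0.40). Itpr1, a calcium release channel of the endoplasmic reticulum, had −0.39 ± 0.22 (limma adjusted p = 0.302). Median log2 changes were −0.16 for pumps and exchangers, −0.22 for sensors and buffers and −0.24 for kinases and phosphatases, beside −0.34 for the 9 subunit genes, each gene again through its brightest probe set. Over probe sets rather than genes, the median was −0.26 for the 13 tested members and −0.097 for all 947. For the members above background on all arrays it was −0.13. Atp2b2, Itpka, Ptk2b and Snap25 passed neither without control 1 nor without control 2 (adjusted p = 0.173 to 0.297), and Ptk2b not without KCl 1 (adjusted p = 0.0662). Without the intensity trend none of the 4 passed (adjusted p = 0.127 to 0.199), and Atp2b2 also failed with quantile normalization, with median centring and without the filter, Ptk2b with quantile normalization and without the filter, and Snap25 without the filter.

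**Figure D4:**
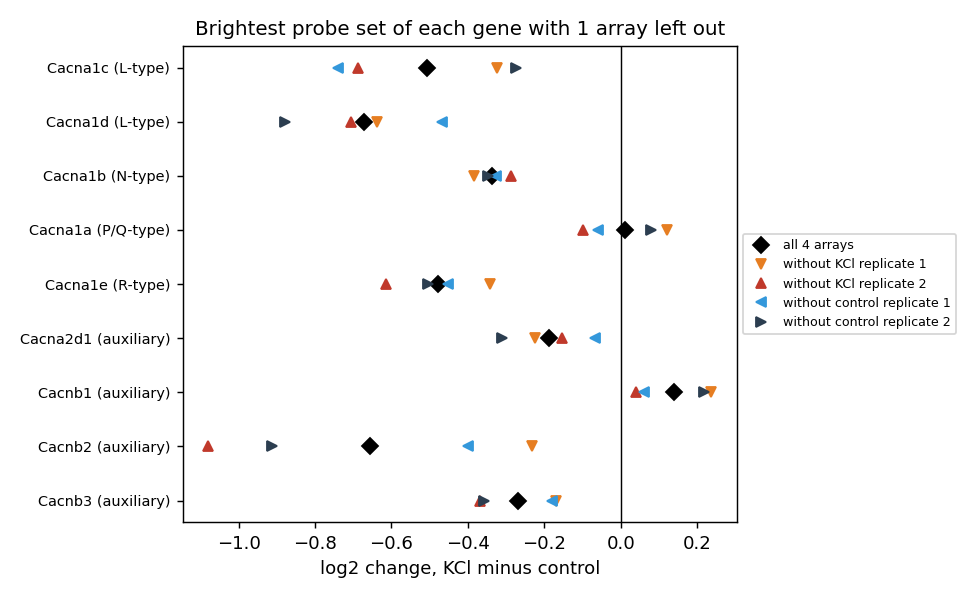
Log2 change of the brightest probe set of each subunit gene with all 4 arrays (diamonds) and with each array left out in turn (triangles). The value of Cacnb2 moves most, from −1.08 to −0.23, Cacna1b stays between −0.39 and −0.29, and only the brightest Cacna1a probe set changes sign.

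Cell type markers moved on the same arrays. Of 7 tested astrocyte markers, each through its brightest probe set, 6 rose. The summed intensity of the 7 was 12550 and 9974 on the KCl arrays and 5484 and 5220 on the control arrays. Apoe alone read 6925.2 and 5196 on the KCl arrays and 2700.2 and 2297.8 on the control arrays. Slc1a3 was called on 2 of 4 tested probe sets, Glul on 2 of 4 and S100b on 1 of 2. With median centring 3 markers were called, with the replicate number as a block 3, and without the intensity trend 0. Leaving out control 1 left 0 of the 6 called, and so did leaving out control 2. The 3 tested inhibitory neuron markers, Gad1, Slc32a1 and Sst, all fell. Their summed intensity was 2480 and 2897 on the KCl arrays and 8291 and 7776 on the control arrays. Most of it came from Sst, with 1712.4 and 1950.6 on the KCl arrays and 5491.2 and 5199.1 on the control arrays. Slc32a1 was called on 1 of 2 tested probe sets. Sst was the 1 that still passed with control 1 left out and with control 2 left out. The 9 tested neuron markers summed to 30840 and 31450 on the KCl arrays and 32420 and 33720 on the control arrays. The bright probe sets of Gap43 and Eno2 added most to this sum. The median log2 change of the 9 was −0.069. In the main fit 1 gene was called higher, Snap25, on 1 of its 4 tested probe sets, and 0 were called lower. With quantile normalization 1 neuron marker was called lower. No marker was at 0. Among the astrocyte markers Slc1a2 was within background on all arrays, and Gja1 on both control arrays, with 32.9 and 41.1. The part of these shifts in the subunit values was not tested, and in bulk RNA fewer cells of a type and less RNA per cell cannot be told apart. Of 5 oligodendrocyte, 2 microglial and 1 vascular marker tested, 0 passed in limma, with 1 unadjusted p below 0.05, for Vcam1. The oligodendrocyte markers Mbp, Pdgfra and Mog and both microglial markers, Ccl2 and Itgam, were within background on all arrays. Hexokinase control probes gave a 3′ to 5′ ratio, a gauge of RNA integrity, of 2.49 and 2.67 on the KCl arrays and 2.25 and 2.00 on the control arrays, and its part was not tested either.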

How the data were processed

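Biotin-labelled cRNA from 5 µg of total RNA was hybridized to 1-colour Affymetrix arrays, per the labels' protocols. Each deposited value is the linear intensity of a probe set. How probes were combined and scaled is not given in the sources used here, but the 2% trimmed means of the arrays, 502.0 to 502.4, show a common level. Symbols came from the platform annotation. Of 1263 probe sets, 1137 had 1 symbol, 8 several and 118 none. Values were taken to log2, the dimmest 25% by mean over the 4 arrays were left out (316 probe sets), and KCl was compared with control by limma 3.58.1 in R 4.3.3 (lmFit, eBayes with an intensity trend), two-sided, with Benjamini-Hochberg adjustment over 947 probe sets and a threshold of 0.05. The code was tested on simulated data. Intensities are per array and folds are ratios of geometric means. Arrays of a group correlated at 0.967 and 0.968 over 947 probe sets, which are not independent replicates. Precision is limited by the number of arrays, with a median SE of 0.214.

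All member probe sets are named. Of each list of pathway genes at most 4 with the smallest p are named, each gene through its brightest probe set, and Cacna1s was added after its values were seen. The members and lists were chosen with earlier results of these data known. The full cAMP response element, its core and the AP-1 site were searched in RefSeq promoter windows. Alternatives were other scalings, a pseudocount of 16, other filters, a replicate block, other variance models and leaving out each array.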

Additional observations from a re-analysis of the deposited data

How the results depend on the processing

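No subunit probe set was called under any of the 13 alternatives except without KCl 2, where 1 was, the Cacna1c probe set M59786_at. Leaving out arrays gave 0 to 1 called. Of 166 recomputed member changes, 156 kept their direction and side of the threshold and 9 changed sign, all when 1 array was left out and with adjusted p-values of 0.661 to 0.997. With each array left out, the Cacna1a values ran from −0.099 to 0.12 for rc_AI229031_s_at, −0.19 to 0.25 for AF051526_at and −0.11 to 0.32 for M99222_s_at. Those of M92905_s_at (Cacna1b) ran from −0.15 to 0.0023, and those of U31815_s_at (Cacna1c, within background) from −0.79 to 0.27. The cause was not tested.

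Over all probe sets, 102 were called, 50 lower. With the replicate number as a block 50 were called, 15 of them lower, without the intensity trend 21 and 3, and with an ordinary t statistic 0 and 0 (157 at an unadjusted p below 0.05). With quantile normalization 31 were lower and without the filter 33. Leaving out arrays gave 11 to 178 called and 1 to 106 lower. Nothing in the labels says that equal replicate numbers mark a shared culture. Deviations of same-numbered arrays correlated at −0.032, which cannot decide it with 2 arrays a group. The block changed no call of a subunit probe set, but Atp2b2, Itpka, Ptk2b and Snap25 did not pass with it (adjusted p = 0.0591 to 0.0985). With 2 arrays a group, no log2 change smaller than 0.403 was called.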
